A study of Homo sapiens with 6 samples.

Results

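Cytosolic ribosomal protein genes, which encode the proteins of the small and large subunits of the ribosome, were examined in 6 RNA sequencing libraries of LX-2, an immortalised human hepatic stellate cell line. Members were the protein-coding genes of the count table, outside the Y chromosome, whose symbols follow the RPS and RPL naming of ribosomal proteins together with RPLP0, RPLP1, RPLP2 and RPSA. This gave 84 of the table's 58735 genes, 32 of the small subunit and 52 of the large subunit. In 3 libraries the cells had been transfected with siRNA (small interfering RNA) directed at NSUN2, which methylates cytosines in RNA, and then given 5 ng/ml TGF-β1 for 24 h, starting 48 h after transfection. In the other 3 libraries the cells had the NSUN2 siRNA with no TGF-β1, and these are called untreated below. Every library therefore carried the siRNA, and libraries without it were not analysed here, so that neither the depletion of NSUN2 nor its part in any value below could be examined. The series' design text gives NAT10 as well as NSUN2 as the target; NSUN2, which the sample labels give, is used here. Replicates are labelled as biological, without word on whether cultures, transfections or days were separate, and LX-2 is a single line grown in culture.

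Ribosomal proteins coat and stabilise the ribosomal RNA: those of the small subunit surround the site where the messenger RNA is decoded, and those of the large subunit surround the centre where amino acids are joined. Their genes are among the most abundantly transcribed in growing cells, and cells make the proteins in near-equal amounts, degrading what is not assembled. Most of their messenger RNAs begin with a C followed by a run of pyrimidines, the 5′ terminal oligopyrimidine (TOP) sequence, through which LARP1 and the mTOR pathway control their translation. TGF-β1 turns stellate cells into producers of collagen and other matrix proteins.

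The start sites of the members carried this TOP feature in a larger share than those of all genes. RefSeq start-site windows (GRCh38.p14) were found for 67 of the 84 members. A C at the first transcribed base with pyrimidines through the first 5 bases stood at a listed start of 47 of these 67 members (70.1%), against 5.14% of 27305 genes with a window. It was present in 18 of 25 small subunit genes (72%) and in 29 of 42 large subunit genes (69%). The windows below run from 40 bases before the start to 20 bases from it and are shown because the values below turn on these genes, with the pyrimidine run that spans the start in capitals.
RPL24: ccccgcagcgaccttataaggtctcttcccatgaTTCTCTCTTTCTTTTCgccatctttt
RPS23: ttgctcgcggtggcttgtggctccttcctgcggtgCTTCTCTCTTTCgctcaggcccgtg
RPLP1: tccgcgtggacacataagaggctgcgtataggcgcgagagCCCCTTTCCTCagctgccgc
RPSA: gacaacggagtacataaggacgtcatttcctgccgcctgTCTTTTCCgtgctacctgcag
RPS27: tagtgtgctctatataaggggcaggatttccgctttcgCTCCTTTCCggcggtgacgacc
RPS27L: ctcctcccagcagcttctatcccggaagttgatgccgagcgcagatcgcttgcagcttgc
RPL7L1: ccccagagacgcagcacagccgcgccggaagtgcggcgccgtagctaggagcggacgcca

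RPL24 (chr3:101686699-101686758, minus strand) and RPS23 (chr5:82278335-82278394, minus strand) rose with TGF-β1, while RPLP1 (chr15:69452778-69452837, plus strand) and RPSA (chr3:39406680-39406739, plus strand) fell, so that TOP runs stood at genes of either direction. RPSA has a pyrimidine run whose base at the listed start is a C. RPS27 (chr1:153990722-153990781, plus strand) has a TOP run of 9 pyrimidines. Its paralog RPS27L (chr15:63157458-63157517, minus strand) and RPL7L1 (chr6:42879576-42879635, plus strand), a paralog of RPL7, have none at their listed starts. Of the 5 paralogs with a window, 1 (RPL22L1) had the feature, against 46 of the 62 other members (74.2%). Letters searched on both strands of the 300-base windows gave CCGGAAG in 35.8% of members and 12.2% of all genes, GCCATNTT in 16.4% of members and 7.97% of all genes, GGGCGG in 58.2% of members and 48.3% of all genes, and CACGTG in 7.46% of members and 8.77% of all genes. TATAAA on the gene's strand, 40 to 16 bases before the start, stood in 5.97% of members and 2.90% of all genes. These are letter matches and show no binding.

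Library totals were 25828504 to 29978361 counts with TGF-β1 and 26957170 to 30034762 counts untreated. Of all genes, 17215 passed the filter on low counts and were tested. NSUN2, the siRNA target, had 103, 97.0 and 102 normalised CPM (counts scaled to a common library size) with TGF-β1 and 81.4, 82.9 and 84.4 untreated. NSUN2 thus stood higher in every TGF-β1 library. In this design a part of that difference in the values below cannot be told apart from TGF-β1 itself. Of 14 stellate cell markers, 12 were tested, and their summed level was 7471 to 8168 normalised CPM with TGF-β1 and 3702 to 3763 untreated. COL1A1 held most of the difference, at 3993 ± 319 with TGF-β1 and 1418 ± 6.13 untreated (SD, n = 3 each); 8 of the 12 were higher and 2 lower, the 2 being ACTA2 (-0.74 ± 0.16) and HAND2 (-0.74 ± 0.17). LRAT was at 0, and PDGFRA and DES were near 0. Of the 6 hepatocyte markers APOB, TTR and FGB were at 0, and the list summed to 21.3 to 23.1 CPM with TGF-β1 and 23.6 to 27.4 untreated. Nearly all of this was SERPINA1 (22.1 with TGF-β1, 24.8 untreated), while ALB and APOA1 were near 0. The 4 cholangiocyte markers summed to 56.8 to 58.5 with TGF-β1 and 71.0 to 72.7 untreated, which was mostly SOX9 (53.0 with TGF-β1, 69.0 untreated), while KRT7 was higher (4.30 with TGF-β1, 2.83 untreated) and EPCAM and KRT19 were near 0. The 5 endothelial markers summed to 1.58 to 2.26 with TGF-β1 and 1.82 to 2.72 untreated, and the 6 leukocyte and Kupffer cell markers summed to 0.454 to 0.566 CPM with TGF-β1 and 0.427 to 0.642 untreated. In bulk libraries such as these, fewer cells of a type and less RNA per cell cannot be told apart.

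The members were abundant, and their levels differed widely from gene to gene. Summed over the 84 genes they held 2.79%, 3.04% and 2.97% of all counts with TGF-β1, against 3.02%, 3.04% and 3.17% untreated. On the per-length FPKM scale, averaged over the 6 libraries, RPL19 and RPL41 of the large subunit had 423 and 421 FPKM, and RPLP0, the base of the large subunit's stalk, had 357. In the small subunit RPS12 and RPS2 were among the highest, with 318 and 316 FPKM. RPL41 encodes the smallest ribosomal protein; between libraries it had 447, 524 and 444 normalised CPM with TGF-β1 and 460, 445 and 507 untreated. The FPKM ranges of RPL19 and RPL41 over the 6 libraries overlapped, so that their order is not beyond their spread. Over the 72 members that are not paralogs and share no more than 25% of their principal transcript with another coding gene, the level at the 90th percentile was 8.20 times that at the 10th. Counted per kilobase of the principal transcript in place of the authors' gene length, the same ratio was 8.54, and RPLP0, RPL19 and RPSA led.

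**Figure D1:**
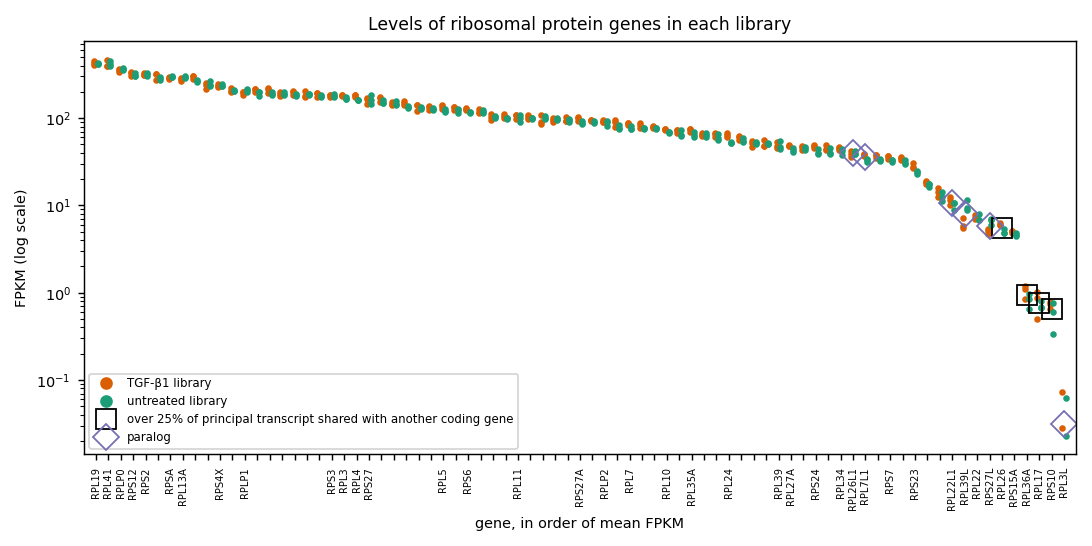
FPKM (log scale) of ribosomal protein genes in each library, 3 with TGF-β1 and 3 untreated, ordered by mean FPKM, for 79 genes, with names for those the text gives. Black squares mark 4 genes that share over 25% of their principal transcript with another coding gene on the same strand, and diamonds mark paralogs; both kinds crowd the low end on the right, while libraries at 0 and RPL10L, at 0 in all 6, cannot be drawn on the log scale.

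The lowest members that are not paralogs include genes that share over 25% of their principal transcript with another annotated gene on the same strand, as well as RPS15A, which shares 8.39%. RPS10 shares 81.2% of its principal transcript with the read-through gene RPS10-NUDT3, RPL36A shares 77.6% with RPL36A-HNRNPH2, RPL17 shares 53.5% with RPL17-C18orf32 and RPL26 shares 36.6% with AC135178.2. Over all 6 libraries these 4 members had 265, 640, 326 and 2418 counts, and each of the partner genes had 0. They were picked out after their values were seen. The sources used here do not say how reads in shared exons were counted, so that the level of these genes is uncertain, and their fold changes rest on low counts. Ribosomal protein genes also have many processed pseudogenes: 1142 in the table, with counts that came to 2.65% of those of the members. For 10 members the pseudogenes held over 10% of the member's own counts, among them RPS2, where they came to 20.3%, and RPL7, where they came to 20.8%.

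With TGF-β1 the ribosomal protein genes moved little, and more of them rose than fell unless libraries were scaled by their totals alone, in which case more fell. Of the 82 tested members, 26 were higher (31.7%) and 5 were lower (6.10%) at an adjusted p under 0.05, and 51 did not pass (edgeR's quasi-likelihood test with Benjamini-Hochberg adjustment over all tested genes). The same rule called 20.2% of all tested genes higher and 18.7% lower. Most members are abundant, and abundant genes were called more often: of the 2534 genes averaging 100 CPM or more, 44.8% were higher and 22.3% lower, and of the 70 members at that level, 25 were higher (35.7%) and 3 lower (4.29%). With these factors the members' share of higher calls lay above that of all genes and below that of abundant genes, and their share of lower calls lay below both. The first of these did not hold with library totals alone or in limma on FPKM, where the share of higher calls lay below that of all genes. The changes were small. The median log2 fold change was 0.09 over the members, against -0.01 over all tested genes, and it was -0.03 against -0.13 when libraries were scaled by their totals alone. In the edgeR test it was 0.068 over genes of at least 100 CPM and 0.074 over the 70 members at that level. The members' median thus lay near that of abundant genes. The median size of a change, whatever its direction, was 0.09 over the members, 0.15 over genes of at least 100 CPM and 0.22 over all tested genes. Of the 82 members, 76 changed by less than 0.25 in log2, and RPL39L alone changed by 0.5 or more. In normalised CPM the groups did not overlap in 26 members, 21 of them higher and 5 lower, against 47.4% of all tested genes without overlap.

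**Figure D2:**
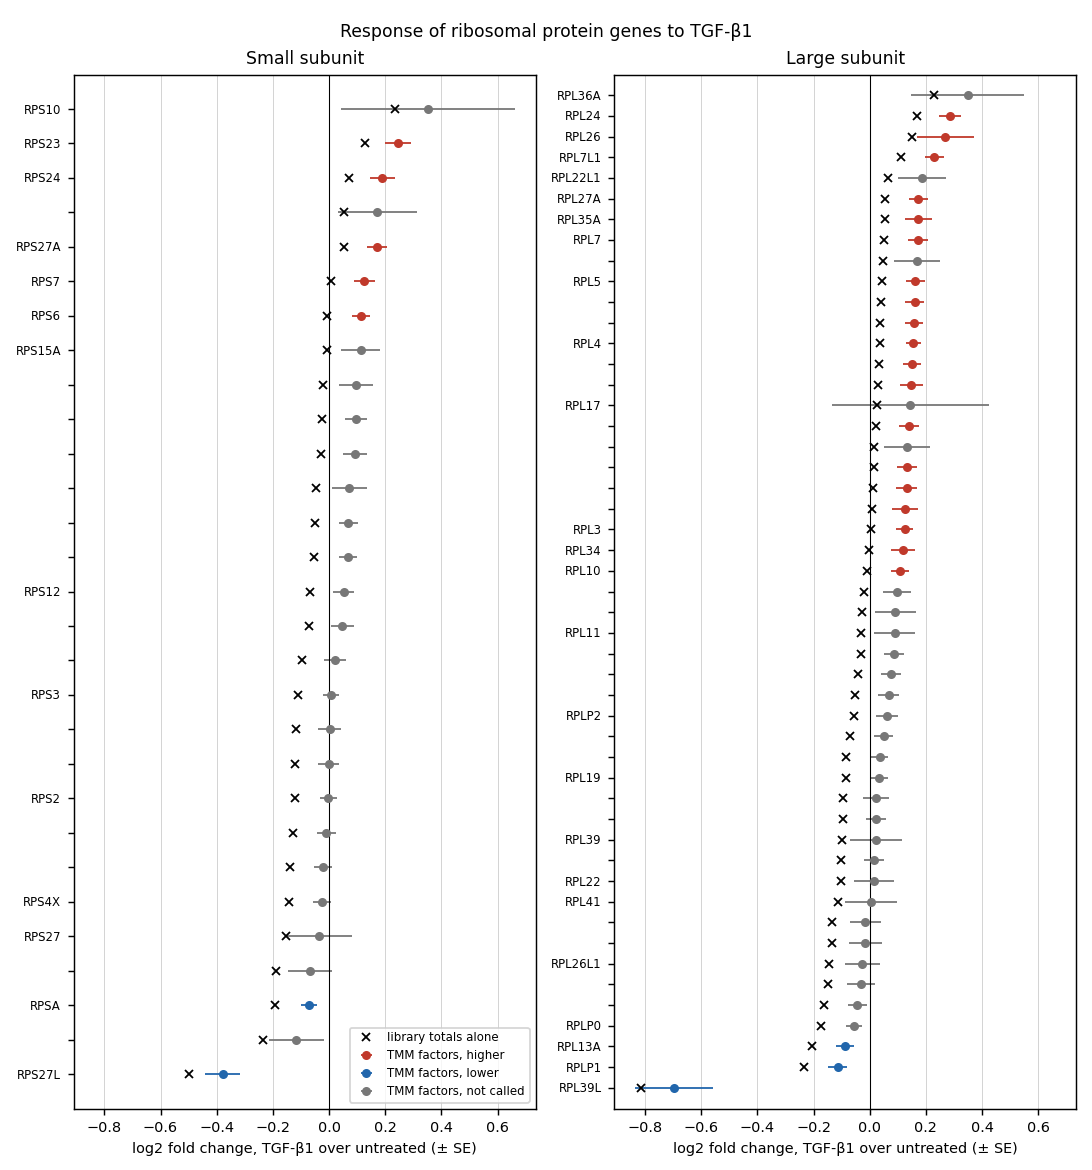
Log2 fold change, TGF-β1 over untreated, of tested ribosomal protein genes by subunit. Circles with bars are the estimate and its standard error with TMM factors, red for higher, blue for lower and grey for genes that did not pass; crosses are the estimates with library totals alone, which shift nearly every gene to the left by about the same amount and put RPL10, RPL34 and RPS6, among others, on the other side of 0. Shown are 78 genes, with names for those the text gives.

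The direction of the set depended on how libraries were scaled. TMM factors, which assume that most genes do not change, were 0.957 to 0.963 with TGF-β1 and 1.04 untreated. With them the summed level of the members was 29084, 31783 and 30918 normalised CPM with TGF-β1 and 28966, 29164 and 30469 untreated, with overlap between the groups. As a plain share of all counts the mean was lower with TGF-β1, at 2.93% ± 0.131, than untreated, at 3.07% ± 0.0817 (SD, n = 3 each), again with overlap. DESeq2 size factors gave the same counts as TMM, 26 higher and 5 lower; upper-quartile factors gave 17 higher (20.7%, against 16.4% of all genes) and 7 lower (8.54%, against 22.6%). Library totals gave 3 higher (RPL24, RPL7L1 and RPS23; 3.66%, against 11.7% of all genes) and 20 lower (24.4%, against 31.1%). Limma on log2(FPKM + 1) gave 13.4% of members higher, against 18.2% of all genes, and on log2(FPKM + 0.1) it gave 8.54%, against 17.3%. In both, 2.44% of members were lower, a smaller share than among all genes (15.6% with + 1). The members' median log2 fold change was 0.081 with + 1 and 0.087 with + 0.1, against 0.0068 and 0.0087 over all genes. The direction in limma on FPKM was thus that found with TMM, with fewer calls. A change of scaling moves nearly every gene by the same amount. The distance of the members' median from that of all genes therefore stayed at 0.09 under each of the 4 scalings. These are not 4 separate results. A single library also weighed on the count: without TGF-β1 library 1, 41 members were higher and 2 lower, without untreated library 3 it was 32 and 2, and without each of the other 4 libraries 20 to 23 were higher and 4 to 6 lower.

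**Figure D3:**
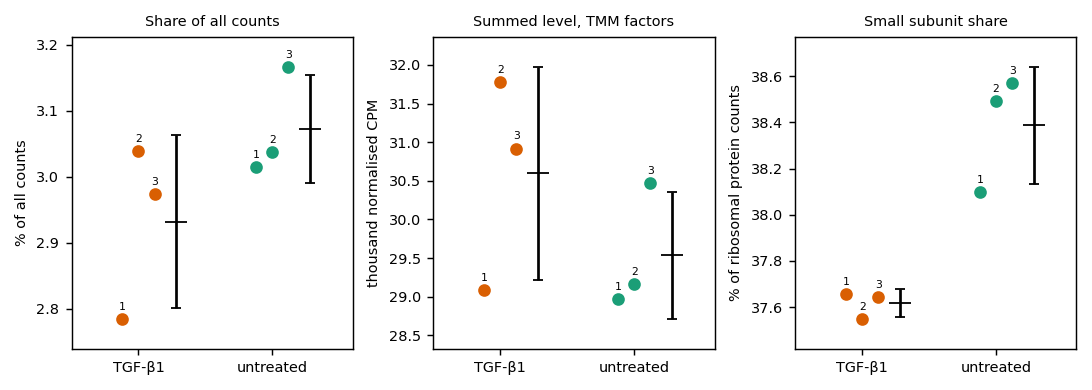
Values of the ribosomal protein genes in each library, with numbers giving the replicate and bars the mean ± SD (n = 3 each); the vertical axes do not start at 0. Left, share of all counts; centre, summed normalised CPM with TMM factors, on an axis scaled as labelled; right, share of the small subunit among ribosomal protein counts, the panel in which the groups do not overlap.

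**Figure D4:**
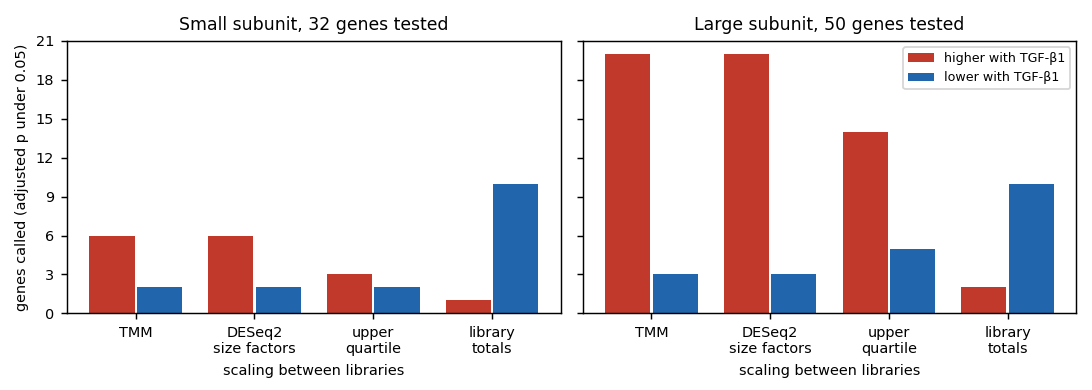
Number of small and large subunit genes called higher or lower with TGF-β1 under 4 scalings between libraries. With TMM, DESeq2 and upper-quartile factors more genes are higher than lower in each subunit, and with library totals alone 10 genes of each subunit are lower, against 1 higher in the small and 2 in the large subunit.

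Among genes of the small subunit, 6 of 32 rose (18.8%, near the 20.2% of all tested genes) and 2 fell (6.25%, against 18.7%). Both shares lay below those of genes averaging 100 CPM or more, as most members do, at 44.8% and 22.3%. RPS23 (chr5:82273358-82278577, hg38), whose protein lies at the decoding centre, had 115, 119.7 and 133 normalised CPM with TGF-β1, against 104, 98.1 and 108 untreated. All 3 TGF-β1 libraries stood above the untreated ones, a rise of 0.25 ± 0.05 in log2 (SE; adjusted p = 5.21e-05, edgeR), which passed in 17 of 18 alternative analyses. RPS24, a protein of the small subunit needed to process its ribosomal RNA, had 363, 396 and 382 with TGF-β1 and 323, 317 and 362 untreated. It rose by 0.19 ± 0.04 (adjusted p = 0.00151, edgeR). RPS27A, made as a fusion with ubiquitin, had 301, 336 and 325 with TGF-β1 and 281, 277 and 296 untreated, a rise of 0.17 ± 0.04 (adjusted p = 0.000174, edgeR). RPS7 (0.13) and RPS6 (0.11), the second being the substrate of S6 kinase in the mTOR pathway, rose by smaller amounts; without untreated library 1 the adjusted p was 0.0523 for RPS7 (edgeR), and RPS6 turned to -0.0058 with library totals alone.

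RPSA (chr3:39406689-39412542), which also serves cells as a laminin receptor, had 1122, 1162 and 1184 normalised CPM with TGF-β1 and 1201, 1235 and 1210 untreated. It lay lower in every TGF-β1 library, by -0.07 ± 0.03 (adjusted p = 0.0382, edgeR), and leaving out any library but TGF-β1 library 3 ended the call, with adjusted p of 0.0514 to 0.184 (edgeR). The other small subunit gene that fell was the paralog RPS27L, given below. RPS3, at the entry of the messenger RNA channel, had 1066, 1129 and 1106 with TGF-β1 and 1063, 1088 and 1136 untreated, with a log2 fold change of 0.01 ± 0.03. RPS4X, the X-linked gene of a protein that also has a Y-linked copy outside the set, had 690, 745 and 719 with TGF-β1 and 715, 718 and 759 untreated (-0.02 ± 0.03). The abundant small subunit genes RPS12 (0.05 ± 0.04) and RPS2 (0.00 ± 0.03) did not pass the test, and their groups overlapped.

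Among genes of the large subunit, 20 of 50 rose (40%, against 20.2% of all tested genes) and 3 fell (6%, against 18.7%). Among genes averaging 100 CPM or more, as most members do, 44.8% rose and 22.3% fell, so that both shares lay below these. RPL24 (chr3:101681091-101686782), whose protein forms a bridge to the small subunit, had 166, 187 and 177 normalised CPM with TGF-β1 and 146, 145 and 145 untreated. The untreated libraries were nearly level and all TGF-β1 libraries were above them, 177 ± 10.6 against 145 ± 0.528 (SD, n = 3 each), a rise of 0.29 ± 0.04 in log2 or 1.22-fold (adjusted p = 6.54e-08, edgeR) that passed in all 18 alternatives. RPL7L1, given with the paralogs below, was the other member that rose in all 18. RPL26 (0.27 ± 0.10; adjusted p = 0.0305, edgeR), a protein at the rim of the exit tunnel, had 15.4, 16.3 and 15.5 with TGF-β1 and 14.0, 12.5 and 12.6 untreated. It is one of the exon-sharing genes, and without TGF-β1 library 2, untreated library 2 or untreated library 3 its adjusted p was 0.0958, 0.113 and 0.0971 (edgeR). RPL27A had 357, 358 and 361 with TGF-β1 and 304, 316 and 334 untreated, the groups standing apart (0.17 ± 0.03; adjusted p = 3.86e-05, edgeR). RPL35A, mutated in some families with Diamond-Blackfan anaemia, had 219.9, 239 and 242 with TGF-β1 and 204, 193 and 224 untreated; it passed (0.17 ± 0.05; adjusted p = 0.00571, edgeR) although TGF-β1 library 1 lay below untreated library 3.

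RPL5 and RPL11, which with 5S ribosomal RNA can bind MDM2 and so stabilise p53, differed in outcome. RPL5 had 488, 528 and 540.1 normalised CPM with TGF-β1 and 456, 455 and 481 untreated, all TGF-β1 libraries being higher (0.16 ± 0.03; adjusted p = 0.000137, edgeR). RPL11 had 267, 299 and 296 with TGF-β1 and 271, 247 and 294 untreated, with overlap (0.09 ± 0.07; adjusted p = 0.407, edgeR); without untreated library 3 it passed, at 0.15 and an adjusted p of 0.0166 (edgeR). The difference between the RPL5 and RPL11 changes was not tested. Among the core proteins of the joining centre, RPL3 (0.12 ± 0.03; adjusted p = 0.000651, edgeR) and RPL10 (0.11 ± 0.03; adjusted p = 0.00525, edgeR) rose, RPL10 turning to -0.01 with library totals alone and missing the threshold without untreated library 1 (adjusted p = 0.0608, edgeR). RPL10 shares part of its exons with DNASE1L1 on the opposite strand, and the sources used here do not say whether counting used strand. RPL19 (0.03 ± 0.03) and RPL41 (0.00 ± 0.09) did not pass.

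The stalk of the large subunit, which recruits elongation factors, is built of RPLP0 with the acidic proteins RPLP1 and RPLP2, and none of its genes was called higher. RPLP1 (chr15:69452784-69456194) had 619, 666 and 666 normalised CPM with TGF-β1 and 668, 713 and 732 untreated. The groups barely cleared each other, and RPLP1 was lower by -0.11 ± 0.03 (adjusted p = 0.00522, edgeR); without TGF-β1 library 1 or untreated library 3 the adjusted p was 0.0557 and 0.0654 (edgeR). RPLP0 had 1372, 1477 and 1480 with TGF-β1 and 1488, 1543 and 1470 untreated, with overlap and no call (-0.06 ± 0.03; adjusted p = 0.136, edgeR). RPLP2 had 183, 182 and 188 with TGF-β1 and 179, 165 and 187 untreated, again with no call (0.06 ± 0.04; adjusted p = 0.232, edgeR). RPL13A, known also for its part in silencing translation of inflammatory messages in myeloid cells, had 641, 701 and 689 with TGF-β1 and 707, 716 and 737 untreated. It was lower by -0.09 ± 0.03 (adjusted p = 0.0227, edgeR), and without TGF-β1 library 1 or untreated library 3 the adjusted p was 0.236 and 0.123 (edgeR).

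**Figure D5:**
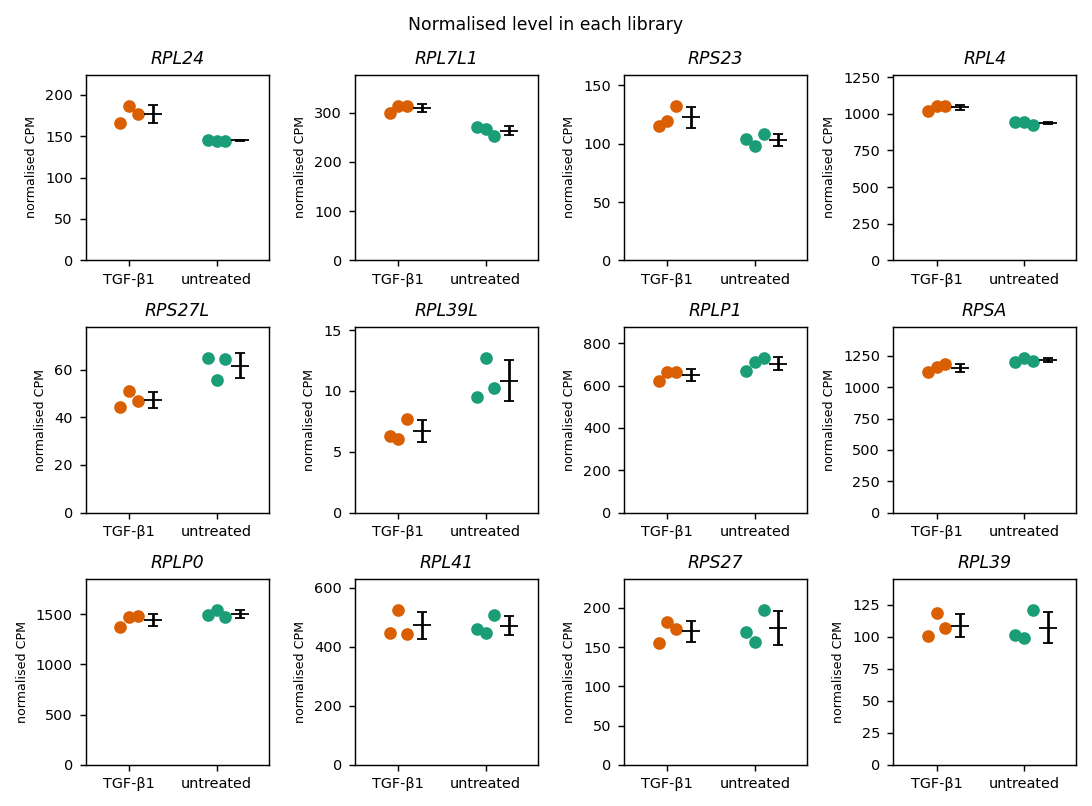
Normalised CPM of 12 ribosomal protein genes in each library, TGF-β1 left and untreated right, with bars for the mean ± SD (n = 3 each) and axes that start at 0. The upper row holds genes that rose (RPL4, chosen after its values were seen, averaged 1044 CPM with TGF-β1 and 937 untreated), the middle row genes that fell, and the lower row genes that did not pass.

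The 7 paralogs, genes related by sequence to a parent ribosomal protein gene, held the largest falls. RPL39L (chr3:187120948-187180908), the autosomal paralog of X-linked RPL39 and enriched in testis, had 6.31, 6.04 and 7.72 normalised CPM with TGF-β1 and 9.53, 12.7 and 10.2 untreated, from 156 to 200 counts per library with TGF-β1 and 287 to 388 untreated. All TGF-β1 libraries were lower, by -0.70 ± 0.14 in log2 or 1.62-fold (adjusted p = 5.35e-05, edgeR). Its parent RPL39 had 101, 118 and 107 with TGF-β1 and 101, 99.1 and 121 untreated (0.02 ± 0.09). Per length, RPL39L stood at 10.3% to 14.6% of RPL39 with TGF-β1 and at 17.1% to 25.96% untreated. This share and the per-length shares of the other paralogs below use the authors' gene lengths. Shares by length of the principal transcript are not given.

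RPS27L (chr15:63125872-63158021), a target gene of p53 in human cells, had 44.3, 50.9 and 47.1 normalised CPM with TGF-β1 and 65.1, 55.6 and 64.6 untreated. It was lower in every TGF-β1 library, by -0.38 ± 0.06 or 1.30-fold (adjusted p = 2.9e-06, edgeR). Its parent RPS27 had 155, 182 and 174 with TGF-β1 and 169, 156 and 197 untreated, with overlap (-0.04 ± 0.12). In FPKM, RPS27L was 3.08% to 3.25% of RPS27 with TGF-β1 and 3.71% to 4.36% untreated. The size of this share rests on the authors' gene lengths. In normalised CPM, which takes no account of length, RPS27L stood closer to RPS27, as the values above show. RPL39L and RPS27L were called lower in all 18 alternatives, library totals included.

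RPL7L1 (chr6:42879618-42889925), whose yeast relative acts in assembly of the large subunit, went the other way, with 299, 315 and 313 normalised CPM with TGF-β1 and 271, 266 and 253 untreated. It rose by 0.23 ± 0.03 or 1.17-fold (adjusted p = 3.44e-07, edgeR). Its parent RPL7 rose too, at 252, 262 and 264 with TGF-β1 and 223, 226 and 243 untreated (0.17 ± 0.04; adjusted p = 0.000122, edgeR), and RPL7L1 stood at 44.1% to 44.6% of RPL7 in FPKM with TGF-β1 and 38.8% to 45.2% untreated. RPL22L1 had 24.3, 30.01 and 27.6 with TGF-β1 and 21.3, 25.4 and 25.4 untreated, missing the threshold (0.19 ± 0.09; adjusted p = 0.0838, edgeR) unless TGF-β1 library 1 was left out (0.27; adjusted p = 0.0137, edgeR). It exceeded RPL22 per length, at 141% to 165% of it with TGF-β1 and 129% to 155% untreated. RPL26L1 (-0.03 ± 0.06) did not pass and stood at 601% to 700% of RPL26 with TGF-β1 and 708% to 872% untreated, RPL26 being one of the exon-sharing genes above. RPL3L, a gene of heart and skeletal muscle, had 15 counts over all libraries, and RPL10L, a testis gene, was listed at 0 in every library; neither was tested.

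The median change was slightly higher for the large than for the small subunit, and no test was made over the members. A change of scaling moves both medians nearly alike, so their order under other scalings is no separate support. The median log2 fold change was 0.06 over 32 small subunit genes (interquartile range -0.01 to 0.11) and 0.09 over 50 large subunit genes (0.02 to 0.15), and with library totals alone it was -0.06 and -0.02. The median of the small minus that of the large subunit was -0.03, and it lay between -0.05 and -0.03 in all 18 alternatives. Without the paralogs, 6 of 31 small (19.4%) and 19 of 46 large subunit genes (41.3%) were called higher, and 1 (3.23%) and 2 (4.35%) lower. For comparison, 20.2% of all tested genes were higher and 18.7% lower. Among genes averaging 100 CPM or more it was 44.8% and 22.3%. Within libraries, small subunit genes took 37.7%, 37.6% and 37.6% of ribosomal protein counts with TGF-β1, against 38.1%, 38.5% and 38.6% untreated. This share does not depend on scaling between libraries; its mean was 37.6% ± 0.0587 with TGF-β1 and 38.4% ± 0.253 untreated (SD, n = 3 each), and the groups did not overlap. Leaving RPSA out, the share was 35.16% to 35.18% with TGF-β1 and 35.4% to 36.0% untreated. Without paralogs and exon-sharing genes it was 37.9% to 38.1% with TGF-β1 and 38.4% to 38.9% untreated. Per length, the median small subunit gene stood at 108 to 119 FPKM with TGF-β1 and 108 to 111 untreated, and the median large subunit gene at 77.1 to 83.4 FPKM with TGF-β1 and 74.9 to 77.7 untreated.

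Features that did not enter the choice of members are given as descriptions. Their counts stand against 31.7% higher and 6.10% lower over all tested members. Over all tested genes the shares were 20.2% and 18.7%, and over genes averaging 100 CPM or more 44.8% and 22.3%. The 28 members that host snoRNA genes in their introns, 60 snoRNA genes in all, had 9 higher and 2 lower (median 0.08, or -0.04 with library totals alone), and the 54 tested members without had 17 higher and 3 lower (median 0.09, or -0.03). The shares of higher calls, 32.1% and 31.5%, were both near that of all tested members. Members with a TOP start had 13 higher and 3 lower of 47 (median 0.07), and those with a window but no TOP start had 8 higher and 1 lower of 19 (median 0.12). The feature was read only at the listed start bases, and a start listed a few bases off would miss it. The second group may therefore hold genes whose messages do begin with a TOP sequence. Across the 82 tested members, the log2 fold change had a Spearman rho of -0.451 with mean FPKM, 0.307 with gene length and 0.014 with the length of the principal transcript; the points share libraries and, for FPKM, the gene length, and these are descriptions. Without paralogs and exon-sharing genes, 24 of 72 members were higher and 3 lower (median 0.07).

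Genes that make, carry or control ribosomal proteins were read from lists, whose counts stand against 20.2% of all tested genes called higher and 18.7% lower. Many of the listed genes are abundant, and of genes averaging 100 CPM or more 44.8% were higher and 22.3% lower. The TOP and chaperone lists share some genes, among them BTF3, which was called higher and is counted in both. FAU, which encodes a ribosomal protein fused to a ubiquitin-like protein, rose (208 ± 6.19 CPM with TGF-β1, 188 ± 10.3 untreated; 0.15 ± 0.04; adjusted p = 0.00136, edgeR). Of 25 tested elongation factors and other genes with TOP messages, 11 were higher and 3 lower (median 0.04). EEF1B2, an exchange factor for elongation factor 1, rose by 0.29 ± 0.04 and EEF2, the translocation factor, by 0.14 ± 0.03; GAS5, a snoRNA host whose TOP message is not translated into a known protein, rose by 0.28 ± 0.06. TPT1 (-0.06 ± 0.04; adjusted p = 0.275, edgeR) did not pass, and EEF1A1, the most abundant at 6884 ± 226 CPM with TGF-β1 and 7139 ± 45.7 untreated, did not pass (-0.05 ± 0.03; adjusted p = 0.0992, edgeR). Of 22 chaperones, importers and assembly factors, 12 were higher and 0 lower (median 0.15), with IPO7, an importin that carries ribosomal proteins into the nucleus, at 0.33 ± 0.03 and GRWD1, a chaperone of RPL3, at 0.34 ± 0.04. Of 21 tested genes that control translation of these messages, 7 were higher and 3 lower (median 0.04): LARP1 rose by 0.27 ± 0.03, and RRAGC, a GTPase that signals amino acids to mTOR, was at -0.37 ± 0.11. Of 14 ribosome surveillance genes, 4 were higher and 2 lower (median 0.03), with PELO, a ribosome rescue factor, at 0.26 ± 0.05 and MDM2 at -0.33 ± 0.05. Of 77 tested mitochondrial ribosomal protein genes, 16 were higher, a share near that of all genes, and 4 lower (median 0.06), with medians of 0.06 for the small and 0.07 for the large mitochondrial subunit; MRPL48 (0.35 ± 0.07) and MRPL53 (0.58 ± 0.22) had the largest changes among them by the rule for named genes, at 34.5 ± 1.10 and 3.44 ± 0.192 CPM with TGF-β1, against 27.2 ± 0.223 and 2.31 ± 0.407 untreated. MRPL53 passed narrowly (adjusted p = 0.0348, edgeR), and without TGF-β1 library 1 or 2 or untreated library 1 or 2 its adjusted p was 0.0623, 0.102, 0.168 and 0.0538 (edgeR). MYC, a transcription factor that drives ribosome production, was at 149.7, 149.5 and 148 normalised CPM with TGF-β1 and 66.6, 70.2 and 64.6 untreated (1.15 ± 0.04; adjusted p = 4.02e-25, edgeR).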

How the data were processed

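RNA was sequenced from 6 LX-2 libraries, 3 per group, grouped by the sample labels. The authors' deposited table gives raw read counts per gene; the deposited FPKM values were found to be those same counts per length, scaled with 1 size per library (0.984 to 0.987 times the total with TGF-β1, 1.07 to 1.08 untreated). The submitters' processing notes name fastp, HISAT2 2.2.1 and build hg38; the counting tool and strand setting are not given in those sources. In both of the tables, 6 per-sample columns matched no sample and were not used. All 58735 gene identifiers matched GENCODE release 29.

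Counts were tested with edgeR 4.0.16 in R 4.3.3 (TMM, filterByExpr with minimum count 10 and minimum total 15, robust quasi-likelihood fit, two-sided, group as the only term, Benjamini-Hochberg over 17215 genes, threshold 0.05). The SE was derived from the log2 fold change and the F statistic. Normalised CPM uses TMM-scaled totals. Alternatives were other scalings, filters, DESeq2 1.42.0, limma-voom (limma 3.58.1), a fit that was not robust, a replicate block, pseudogene counts added to the member's, limma on log2(FPKM + 1) and log2(FPKM + 0.1) with a mean FPKM of at least 0.5, and each library left out. Scripts were tested on simulated counts. The members, lists and alternatives were chosen with earlier results of these data known. Named were RPLP0, RPLP1, RPLP2, RPL5, RPL11, RPSA, RPS6, RPS3, RPL41, RPS4X, the paralogs and their parents, NSUN2, FAU, EEF1A1, EEF2, TPT1 and MYC whatever their result, in each subunit the 5 called members with the largest rise and the 5 with the largest fall at 5 CPM or more, the 3 most abundant, members not tested, and up to 2 called genes of each further list; other names followed after values were seen. Some genes this rule takes are not reported here. Depth limits precision mainly for the low members.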

Additional observations from a re-analysis of the deposited data

How the results depend on the processing

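Of 882 values of 49 named genes under 18 alternatives, 762 kept direction and side of the threshold, 65 lost the call, 13 gained it and 42 changed sign. RPL24, RPL7L1, RPL39L and RPS27L kept their calls in all 18. Library totals alone gave 2019 higher and 5354 lower of all genes, 3 and 20 members (small 1 and 10, large 2 and 10), and medians of -0.033 (small -0.059, large -0.025). Upper-quartile factors gave 17 members higher (small 3) and 5 large lower. Limma on log2(FPKM + 1) gave 11 higher and 2 lower (small 3 and 1, large 8 and 1), and with + 0.1 it gave 7 and 2 (small 1 and 1, large 6 and 1). No filter left 1 small subunit gene lower. With a library left out, 20 to 41 members were higher and 2 to 6 lower. In the small subunit it was 4 to 13 and 1 to 2, and in the large 15 to 28 and 1 to 4. All genes ran from 3089 to 3366 higher (17.55% to 18.8%) and 2850 to 3009 lower (15.9% to 16.8%). The medians ran from 0.06 to 0.12 for all members, 0.03 to 0.10 for the small and 0.07 to 0.14 for the large subunit. The small minus large difference ran from -0.05 to -0.03. The replicate block gave 29 higher and 5 lower. The deviations of same-numbered libraries from their group means correlated at -0.00492, 0.0111 and -0.00909. With 3 libraries a group, these values cannot show whether same-numbered libraries shared cultures or days, which the labels do not say.

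Signs changed with library totals for RPL10 (-0.011), RPL11 (-0.030), RPL19 (-0.085), RPL22 (-0.10), RPL39 (-0.098), RPL41 (-0.11), RPLP2 (-0.058), RPS12 (-0.067), RPS3 (-0.11) and RPS6 (-0.0058); with upper-quartile factors for RPL19 (-0.011), RPL22 (-0.030), RPL39 (-0.024), RPL41 (-0.041) and RPS3 (-0.038); with the 1 CPM filter for RPL41 (-0.0011); and for RPS2 with pseudogene counts added (0.0051) and in limma on FPKM at pseudocounts 1 and 0.1 (0.0014 each). With a library left out, genes near 0 changed sign within these ranges: RPL19 -0.0036 to 0.080, RPL22 -0.026 to 0.085, RPL26L1 -0.077 to 0.036, RPL39 -0.042 to 0.11, RPL41 -0.075 to 0.058, RPS2 -0.037 to 0.017, RPS27 -0.11 to 0.059, RPS3 -0.017 to 0.034 and RPS4X -0.048 to 0.0077. The cause was not tested. Standard errors rest on 3 libraries a group, and the values of RPS10, RPL17 and RPL36A on few counts.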

Other observations

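EEF1G, which encodes the gamma subunit of the elongation factor 1 complex and is active in nearly all cells, was listed at 0 counts in all 6 libraries, as were RPS10-NUDT3, RPL36A-HNRNPH2, RPL17-C18orf32 and AC135178.2, the genes that share exons with low ribosomal protein members. EEF1B2, of the same complex, averaged 340 ± 23.0 normalised CPM with TGF-β1 and 278 ± 5.66 untreated (SD, n = 3 each). Among the exon-sharing members, RPS10 had 47, 52 and 41 counts with TGF-β1 and 46, 56 and 23 untreated, and RPL17 had 64, 64 and 33 with TGF-β1 and 53, 63 and 49 untreated. The counts of the RPS10 pseudogenes came to 262% of those of RPS10, and the counts of the RPL17 pseudogenes to 56.7% of those of RPL17. How reads were shared out between these genes was not tested.

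BTF3, a subunit of the complex that meets nascent chains at the ribosome, averaged 435 ± 16.3 normalised CPM with TGF-β1 and 363 ± 9.02 untreated (0.26 ± 0.03; adjusted p = 9.27e-09, edgeR), and NPM1, a nucleolar protein of ribosome assembly, 665 ± 11.3 with TGF-β1 and 573 ± 10.2 untreated (0.22 ± 0.03; adjusted p = 6.15e-08, edgeR). In the other direction, PABPC1, which binds poly(A) tails, averaged 509.9 ± 10.3 with TGF-β1 and 567 ± 13.4 untreated (-0.15 ± 0.03; adjusted p = 5.27e-05, edgeR). RPTOR and MLST8, partners of mTOR in complex 1, averaged 93.9 ± 4.29 and 26.4 ± 1.55 with TGF-β1, against 112 ± 6.45 and 31.8 ± 2.73 untreated. These genes were named after their values were seen.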
